A study of Mus musculus with 6 samples.

Results

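The 10 genes described here encode the actins of the cytoplasm and proteins that bind them: the transgelins Tagln2 and Tagln3, the beta-thymosins Tmsb4x and Tmsb10, the profilins Pfn1 and Pfn2, the cofilins Cfl1 and Cfl2, and the cytoplasmic actins Actb and Actg1. They were taken by name from a table of 31469 rows, and each of the 10 names had 1 row. All 10 were among the 13787 rows that averaged at least 1 TPM (a share of the library's transcripts, scaled by transcript length) and so were tested. The set was selected on earlier TPM values of the same comparison, in which Tagln2 stood among the larger rises. Their fold changes and adjusted p-values are therefore a description of these libraries and not independent support for a direction.

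The 3 Dicer knockout libraries and the 3 wild-type libraries came from parvalbumin-positive neurons of the lumbar 4 dorsal root ganglion of C57BL/6 mice at postnatal day 21. Dicer was deleted conditionally by Cre recombinase under parvalbumin control, so the deletion follows the cells and the time at which parvalbumin is switched on. Dicer is the enzyme that trims microRNA precursors to their mature form, and parvalbumin marks mainly proprioceptors in this ganglion. The deleted exon and the alleles carried by the wild-type animals are not given in the sources used here, nor is it stated whether the libraries of a group represent separate animals. The p-values below therefore cover the spread among these 6 libraries, which may be technical.

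Actin exists as single subunits and as filaments built from them. Beta-thymosins hold subunits in reserve, profilins load subunits for assembly at growing ends, cofilins sever and disassemble filaments, and transgelins, relatives of calponin, bind along filaments. In sensory neurons the same machinery shapes growth cones, axon branches and the cortex beneath the membrane.

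Dicer1 had values of 24.0, 20.8 and 21.8 TPM in knockout, against 36.7, 26.0 and 48.7 TPM in wild type. The groups did not overlap, yet the log2 fold change of -0.68 (SE 0.22) missed the threshold (limma adjusted p = 0.104). It passed without wild-type replicate 2 (-0.90, adjusted p = 0.0412) and was -0.335 with the satellite glia markers described below as a covariate, and a value over the whole gene cannot show the loss of a part of it. Pvalb was at 4.02, 3.69 and 13.98 TPM in the knockout libraries, against 25.05, 19.7 and 23.1 TPM in wild type. Neuronal Snap25 averaged 11049 ± 398 TPM in knockout and 12862 ± 1481 TPM in wild type (SD, n = 3 each). Xist was near 0 (0 TPM in knockout, 0.06 TPM in wild type) and Ddx3y near its maximum (32.7 TPM in knockout, 33.3 TPM in wild type) in replicate 3 of both groups, and Xist reached 22.2 TPM or more elsewhere. Sequencing depth is unknown, because TPM keeps none. A lower share of one cell type and less RNA per cell cannot be told apart in such pooled samples.

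In knockout libraries 4 of the 10 genes passed the test as higher (Tagln2, Tmsb10, Tmsb4x and Actb) and 0 as lower, where 1.86% of all tested rows were called higher and 3.17% lower, or 5.03% in either direction. At an unadjusted limma p below 0.05, 8 were higher and 0 lower. The share of all tested rows at that threshold is not given, so unadjusted counts here and below have no baseline beside them. In 7 genes all 3 knockout values lay above all 3 wild-type values, an arrangement found in 11.8% of tested rows; 28.9% had separate groups in either direction. The log2 fold change was above 0 in 9 of the 10 genes and in 45% of tested rows. The median log2 fold change was 0.42 over the 10 genes and -0.05 over all tested rows. The same contrast entered the choice of the genes, so nothing is read from the gap between these shares. A filter at 5 TPM gave 6 called genes, no filter gave 2, and leaving out single libraries gave between 2 and 5. It was 2 without any 1 of knockout replicates 1, 2 and 3 or of wild-type replicates 2 and 3, and in each of these cases the genes still called were Tagln2 and Tmsb10.

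**Figure D1:**
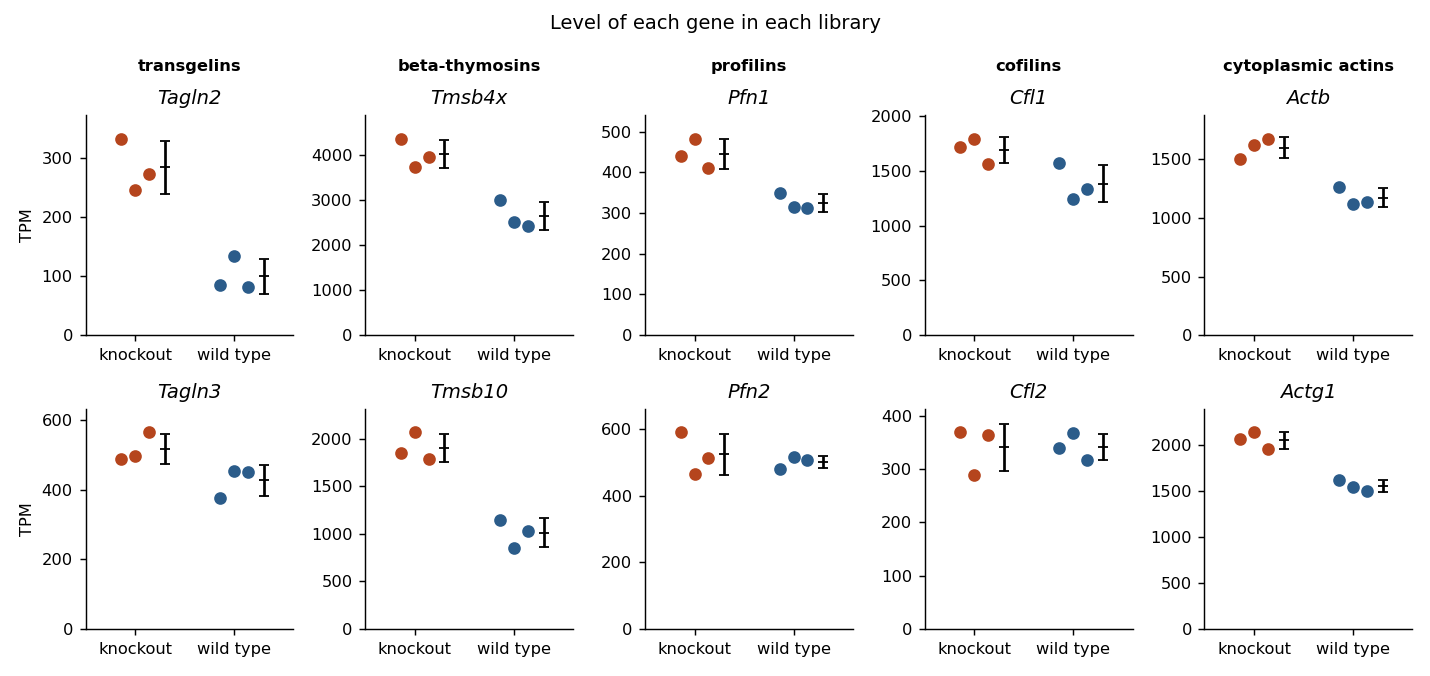
TPM of each gene in each library, with knockout left of wild type and 1 point per library; the bars beside the points are the mean and SD of 3 libraries. Tagln2, Tagln3, both beta-thymosins, Pfn1 and both actins have groups that do not overlap, and Pfn2, Cfl1 and Cfl2 have groups that do.

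These transcripts were abundant. The 10 genes summed to 13706, 13335 and 13061 TPM in knockout and to 10229, 9039 and 9078 TPM in wild type. They held between 1.31% and 1.37% of a knockout library and between 0.904% and 1.02% of a wild-type library. TPM is scaled by transcript length, so levels are set side by side between genes here. Amplification and reads shared with pseudogenes, described below, make this order less certain than a comparison of 1 gene between groups. In the knockout libraries the order of mean TPM was Tmsb4x, Actg1, Tmsb10, Cfl1, Actb, Pfn2, Tagln3, Pfn1, Cfl2 and Tagln2. Library ranges overlapped between neighbours from Actg1 through Actb, between Pfn2 and Tagln3, and between Cfl2 and Tagln2. In wild type the order was Tmsb4x, Actg1, Cfl1, Actb, Tmsb10, Pfn2, Tagln3, Cfl2, Pfn1 and Tagln2. There the ranges overlapped between neighbours from Actg1 through Tmsb10 and between Cfl2 and Pfn1, and Tagln2 lay below all of the others in every library. Tmsb10 thus stood above Cfl1 and Actb by mean in knockout and below both in wild type, and Pfn1 and Cfl2 changed places.

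Because Dicer makes microRNAs, the annotated 3' UTRs (the stretch after the stop codon) of the 10 genes were read for matches to the seeds of 17 microRNA families known from neurons or muscle. The seed is bases 2 to 8 of a microRNA, and a match is the 7-base reverse complement of it on the transcript strand. The microRNAs themselves were not measured. The 4 mature sequences below (RefSeq, GRCm38.p6) have their seeds in capitals and are shown because their matches lie in Tagln2 or Tmsb4x. miR-206, which shares its seed with miR-1, and miR-133b are best known from muscle, miR-183 from sensory cells and miR-9 from the nervous system.
miR-206-3p: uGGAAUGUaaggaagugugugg
miR-133b-3p: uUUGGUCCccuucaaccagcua
miR-9-5p: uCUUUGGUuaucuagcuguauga
miR-183-5p: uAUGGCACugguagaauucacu

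The following windows of GENCODE vM21 3' UTRs (GRCm38), 28 bases or shorter, have the 7 matching bases in capitals. They show where these 4 seeds match Tagln2 and Tmsb4x, which were called higher, and for comparison a match to the same seeds in Pfn2 and Cfl2, which were not called.
Tagln2, miR-206 match, chr1:172506757-172506784, plus strand: gtatatatatgttttagcagACATTCCc
Tagln2, upstream miR-133 match, chr1:172506950-172506977, plus strand: cccccacaaccatcaaaactGGACCAAc
Tagln2, downstream miR-133 match, chr1:172506968-172506995, plus strand: ctggaccaacaaaaaccctgGGACCAAa
Tagln2, miR-9 match, chr1:172506970-172506997, plus strand: ggaccaacaaaaaccctgggACCAAAGt
Tmsb4x, miR-206 match, chrX:167207465-167207492, minus strand: gcgccgccaatatgcactgtACATTCCa
Tmsb4x, miR-183 match, chrX:167207167-167207194, minus strand: taaaatgcagtttaatcagaGTGCCATt
Pfn2, miR-133 match, chr3:57842271-57842298, minus strand: tgtccagtttatttttcataGGACCAAt
Cfl2, miR-183 match, chr12:54861105-54861124, minus strand: aataatagccaaGTGCCATt

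The match ACATTCC to miR-206 was found in Tagln2 and Tmsb4x and in 10.9% of the 11510 tested genes whose 3' UTR was read. The match GGACCAA to miR-133 stood at bases 262 and 280 of the 672-base Tagln2 UTR and once in Pfn2, and 8.43% of genes had at least 1. The downstream match in Tagln2 overlaps the match ACCAAAG to miR-9, which Cfl2 also held and which was present in 13.6% of genes. The match GTGCCAT to miR-183 occurred in Tmsb4x, Pfn2 and Cfl2 and in 10.3% of genes. Tagln2 had 5 matches to 4 families. The one not printed above is CACTGTG, for miR-128, which Tmsb10 also held and 21.6% of genes share. In all, 7 of the 10 genes held a match to at least 1 family, against 73.0% of all genes read. The genes read had a median 3' UTR of 1090 bases, and none of these shares was adjusted for UTR length. Of the 4 genes called higher, 3 held one, and of the 6 others, 4 did. Pfn1, Actb and Actg1 held none in UTRs of 274, 683 and 700 bases. Of these, Actb was called higher, and Pfn2, with 5 matches in 1322 bases, was not called. Whether the matches have a part in the fold changes was not tested. A match is a description of letters and not a measured binding site.

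**Figure D2:**
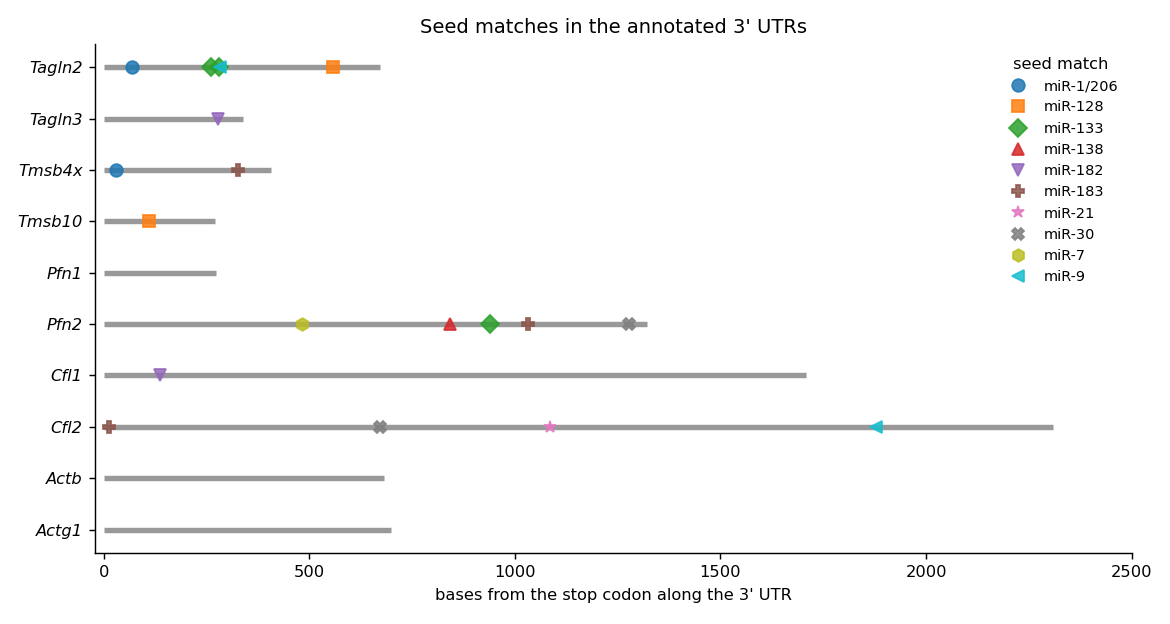
Positions of seed matches along the annotated 3' UTR of each gene, in bases from the stop codon; each grey bar is the length of the UTR and each symbol a microRNA family. Tagln2 has 5 matches in 672 bases, while Pfn1, Actb and Actg1 have none.

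Among the transgelins, Tagln2 was called higher in the knockout and Tagln3, its neuronal relative, was not called. Tagln2 (GRCm38 chromosome 1, 172500047 to 172507380) measured 332, 245 and 273 TPM in knockout, against 84.2, 133 and 80.7 TPM in wild type. By TPM it ranked between 514 and 730 in the knockout libraries and between 1449 and 2312 in the wild-type libraries. The lowest knockout value lay well above the highest wild-type value, that of replicate 2. Knockout averaged 283 ± 44.5 TPM and wild type 99.4 ± 29.4 TPM (SD, n = 3 each), with a log2 fold change of 1.53 on the log2(TPM + 1) scale (SE 0.20, limma adjusted p = 0.00501). It stayed called in all 15 alternatives, with a log2 fold change between 1.30 and 1.76 and an adjusted p between 0.00209 and 0.0403. Without replicate 3 of both groups it was 1.42 (adjusted p = 0.0403).

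Tagln3 (chromosome 16, 45711230 to 45724608) was at 487, 496 and 564 TPM in knockout and at 376, 455 and 451 TPM in wild type. The groups did not overlap, but the closest values were 487 TPM in knockout and 455 TPM in wild type, and the log2 fold change of 0.27 (SE 0.12, limma adjusted p = 0.197) did not pass the test. The within-library log2 ratio of Tagln2 to Tagln3, which does not move with the scaling of a library, averaged -0.87 ± 0.28 in knockout and -2.13 ± 0.35 in wild type (SD, n = 3 each). Tagln2 thus remained the less abundant of the pair in every library, with a smaller gap in knockout. The difference of 1.25 had an exact two-sided permutation p of 0.1, the smallest that 3 against 3 libraries can give (0.25 adjusted over the 5 ratios computed). Tagln, the smooth muscle transgelin, averaged 0.80 ± 0.67 TPM in knockout and 0.79 ± 0.71 TPM in wild type.

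Both beta-thymosins were higher in the knockout. Tmsb10 (chromosome 6, 72957347 to 72958748) measured 1856, 2070.2 and 1790.5 TPM in knockout and 1150.6, 852 and 1036 TPM in wild type. Every knockout value exceeded every wild-type value by at least the width of the wild-type range. Knockout averaged 1905 ± 146 TPM and wild type 1013 ± 151 TPM (SD, n = 3 each), with a log2 fold change of 0.92 (SE 0.13, limma adjusted p = 0.00848). It stayed called with any single library left out (adjusted p from 0.0121 to 0.0423), but not without replicate 3 of both groups (0.99, adjusted p = 0.0527) or without limma's intensity trend, which lets the assumed spread vary with level (adjusted p = 0.0560).

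Tmsb4x (chromosome X, 167207093 to 167209315), the most abundant of the 10 genes, was at 4357, 3732 and 3949 TPM in knockout and at 2989.9, 2502 and 2415 TPM in wild type. Knockout replicate 2 was the lowest of its group and still above wild-type replicate 1, the highest of the other. The log2 fold change was 0.61 (SE 0.13, limma adjusted p = 0.0308), and the call rested on having all libraries. It ended without any 1 of knockout replicates 1, 2 and 3 and wild-type replicates 2 and 3 (adjusted p from 0.0672 to 0.115), and with wild-type replicate 1 left out it was 0.70 (adjusted p = 0.0227). Without replicate 3 of both groups, which differ from the others in X-linked Xist, it was 0.56 (adjusted p = 0.172), and the call also ended without a filter (adjusted p = 0.111) and without the intensity trend (adjusted p = 0.107). The log2 ratio of Tmsb4x to Tmsb10 averaged 1.07 ± 0.20 in knockout and 1.38 ± 0.17 in wild type, a difference of -0.31 (exact two-sided permutation p = 0.2), and the groups met at 1.23 in knockout and 1.22 in wild type. Together the beta-thymosins summed to 5918 ± 257 TPM in knockout and 3649 ± 429 TPM in wild type, a gap of 2269.5 TPM out of the 3919 TPM by which the 10 genes differed. Another beta-thymosin, Tmsb15b2, averaged 58.3 ± 6.55 TPM in knockout and 38.9 ± 9.08 TPM in wild type (log2 fold change 0.59, limma adjusted p = 0.101).

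The cytoplasmic actins had nearly the same fold changes as each other, on either side of the threshold. Actb (chromosome 5, 142903115 to 142906754), which encodes beta-actin, was at 1500.1, 1619 and 1677 TPM in knockout and at 1264, 1116 and 1132 TPM in wild type. Its log2 fold change was 0.45 (SE 0.11, limma adjusted p = 0.0459). Actg1 (chromosome 11, 120345690 to 120348542), which encodes gamma-actin, was at 2060.4, 2138 and 1955 TPM in knockout and at 1619, 1541 and 1495 TPM in wild type (log2 fold change 0.40, SE 0.10, limma adjusted p = 0.0554). Neither pair of groups overlapped. The Actb call ended without any 1 of knockout replicates 1, 2 and 3 and wild-type replicates 2 and 3 (adjusted p from 0.103 to 0.142), while Actg1 missed the threshold in each leave-one-out fit and passed with the filter at 5 TPM (adjusted p = 0.0421). The Actb call also ended without a filter (adjusted p = 0.108) and without the intensity trend (adjusted p = 0.145). The log2 ratio of Actb to Actg1 was -0.36 ± 0.12 in knockout and -0.41 ± 0.05 in wild type, a difference of 0.05 that was smaller than the spread between libraries (exact two-sided permutation p = 0.7).

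**Figure D3:**
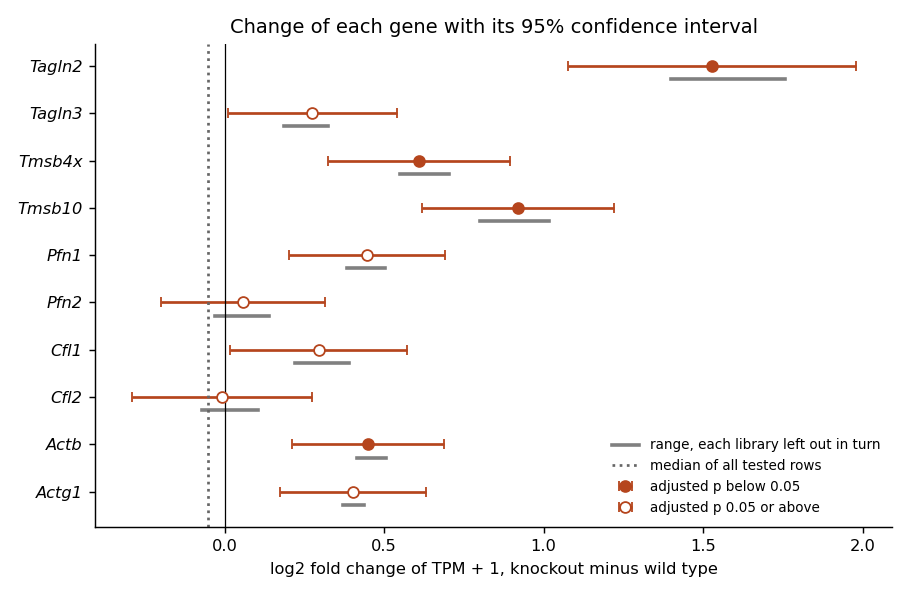
Log2 fold change of TPM + 1, knockout minus wild type, with the 95% confidence interval from limma for each gene; filled points passed an adjusted p of 0.05 and grey bars are the range when each library is left out in turn. Tagln2 is at 1.53 and Tmsb10 at 0.92, and the intervals of Pfn2 and Cfl2 include 0.

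Of the profilins, Pfn1 was close to the threshold and Pfn2, the form enriched in neurons, was not. Pfn1 (chromosome 11, 70651850 to 70654644) was at 439.5, 484 and 410.5 TPM in knockout and at 351, 314 and 312 TPM in wild type, with no overlap. Its log2 fold change was 0.45 (SE 0.11, limma adjusted p = 0.0505), and it passed without wild-type replicate 1 (0.50, adjusted p = 0.0452), with the filter at 5 TPM (adjusted p = 0.0421) and with rows of 1 name summed (adjusted p = 0.0493). Pfn2 (chromosome 3, 57841895 to 57848079) was at 591, 467 and 515 TPM in knockout and at 482, 516 and 507 TPM in wild type, so that the knockout values lay on both sides of the wild-type ones. The log2 fold change was 0.06, with a 95% interval from -0.20 to 0.32. The log2 ratio of Pfn1 to Pfn2 averaged -0.24 ± 0.25 in knockout and -0.62 ± 0.14 in wild type. The groups did not overlap, with a difference of 0.39 (exact two-sided permutation p = 0.1, 0.25 adjusted over the 5 ratios).

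The cofilins did not pass the test. Cfl1 (chromosome 19, 5490455 to 5495201), the non-muscle form, was at 1714, 1795 and 1564 TPM in knockout and at 1574, 1244 and 1333 TPM in wild type. Only wild-type replicate 1 reached into the knockout range, and the log2 fold change was 0.29 (SE 0.12, limma adjusted p = 0.187). Cfl2 (chromosome 12, 54858809 to 54862877), the form best known from muscle, was at 369, 289 and 363 TPM in knockout and at 339, 366 and 317 TPM in wild type. Its log2 fold change was -0.01, with a 95% interval from -0.29 to 0.27. The log2 ratio of Cfl1 to Cfl2 averaged 2.32 ± 0.28 in knockout and 2.01 ± 0.23 in wild type, with overlapping groups (difference 0.30, exact two-sided permutation p = 0.2). Cfl1 overlaps Snx32 on the opposite strand, and whether the counting used strand is not known here. Processed pseudogenes are known for several of these genes, so the division of reads between a gene and its copies is uncertain.

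Summed by family, every one was higher by mean in knockout. The cytoplasmic actins summed to 3650 ± 99.4 TPM in knockout and 2722 ± 140.1 TPM in wild type, a ratio of means of 1.34. The transgelins summed to 799 ± 51.2 TPM in knockout and 526 ± 64.1 TPM in wild type, a ratio of 1.52, close to the 1.62 of the beta-thymosins. The profilins (969 ± 55.0 TPM in knockout, 827 ± 7.52 TPM in wild type, ratio 1.17) and the cofilins (2031 ± 90.1 TPM in knockout, 1724 ± 164 TPM in wild type, ratio 1.18) differed least. Across the 6 libraries the log2 levels of Pfn1, Tmsb10 and Actg1 followed each other most closely, with Pearson r of 0.97 to 0.99 between them, while Pfn2 and Cfl2 went together at 0.72 and Cfl2 was at -0.23 with Tmsb10. Both groups enter these correlations, which share the scaling of each library and are given as a description of 6 points.

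**Figure D4:**
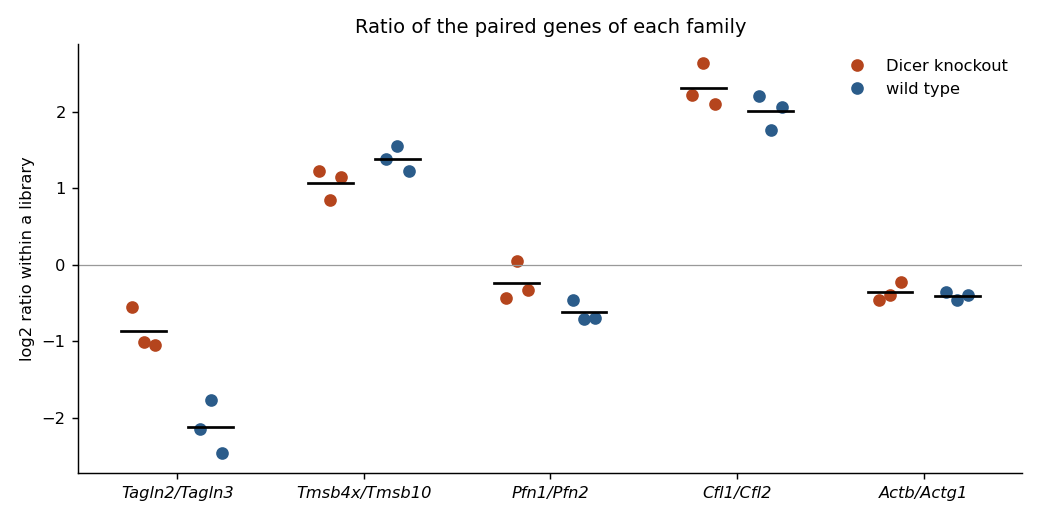
Log2 ratio of the paired genes of each family within each library, with knockout left of wild type, 1 point per library and a line at the mean of 3. The Tagln2/Tagln3 ratio lies between -1.05 and -0.55 in knockout and between -2.47 and -1.76 in wild type, while the Actb/Actg1 points of the groups overlap.

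In the main fit the other actin regulators were called at shares not far from those of the whole table. Of 82 tested genes in 10 functional lists, 2 were called higher (2.44%) and 1 lower (1.22%). Among all tested rows the shares were 1.86% and 3.17%, or 5.03% in either direction. The median log2 fold change of the 82 genes was 0.03. With median-of-ratios rescaling 5 of them were called higher, where 375 rows of the table were. With the filter at 5 TPM 6 of them were, where 328 rows of the table were. The main fit called 256 rows of the table higher. In both alternatives the count of regulators called higher thus rose proportionally more than that of the table. Unadjusted p-values under 0.05 numbered 14 for higher and 4 for lower, with no share over all tested rows to set beside them. Twf2, a twinfilin that binds actin subunits and caps filaments, was at 21.4, 20.4 and 15.7 TPM in knockout and at 7.9, 5.2 and 7.73 TPM in wild type (log2 fold change 1.35, SE 0.22, limma adjusted p = 0.0139). Its call ended without knockout replicate 1 (adjusted p = 0.0720) or knockout replicate 2 (adjusted p = 0.0560), and with the satellite glia covariate (adjusted p = 0.0509). It was the only call among 10 genes of subunit binding and turnover, in which the cofilin relative Dstn averaged 348 ± 43.8 TPM in knockout and 323 ± 33.7 TPM in wild type (SD, n = 3 each).

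Arpc1b, a subunit of the Arp2/3 complex that starts branched filaments, was at 316, 249 and 221 TPM in knockout and at 119.9, 104 and 145 TPM in wild type. Its log2 fold change was 1.08 (SE 0.17, limma adjusted p = 0.0108), and each of the 6 fits that left out a library kept the call (adjusted p from 0.0139 to 0.0463). It missed the threshold without the intensity trend (adjusted p = 0.0601). The other 8 tested subunits did not pass. Arpc1a, the alternative form of the same subunit and named for that after the values were seen, averaged 101 ± 4.07 TPM in knockout and 110.2 ± 12.1 TPM in wild type (log2 fold change -0.11), and the abundant Arpc2 averaged 505 ± 34.3 TPM in knockout and 416 ± 21.1 TPM in wild type (limma adjusted p = 0.143).

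Cyfip2, a subunit of the WAVE complex that activates Arp2/3, was at 115, 89.2 and 114 TPM in knockout and at 166, 194 and 177 TPM in wild type (log2 fold change -0.76, SE 0.13, limma adjusted p = 0.0162). Its call ended without knockout replicates 1 or 2 or wild-type replicates 2 or 3, with adjusted p from 0.0503 to 0.0559, and also without replicate 3 of both groups (0.0758), without the intensity trend (0.0796) and with the satellite glia covariate (0.0891). It was the only call among 22 nucleation and elongation factors, in which Nckap1, another WAVE subunit, averaged 364 ± 18.3 TPM in knockout and 359 ± 10.2 TPM in wild type.

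In the remaining lists described here limma called 0 genes, with 0 to 2 per list higher and 0 or 1 lower without adjustment. None of 7 cofilin kinases and phosphatases passed (0 higher and 1 lower unadjusted), and Limk1, which inactivates cofilin by phosphorylation, averaged 78.2 ± 4.77 TPM in knockout and 66.3 ± 10.96 TPM in wild type. None of 9 capping and severing genes passed (2 higher unadjusted), with the capping subunit Capzb at 317 ± 39.4 TPM in knockout and 318 ± 4.52 TPM in wild type. None of 12 bundling and stabilising genes passed (1 higher unadjusted), with the tropomyosin gene Tpm1 at 503 ± 27.2 TPM in knockout and 575 ± 23.6 TPM in wild type. These errors are SDs of 3 libraries. Of the remaining relatives tested, Cnn3, a calponin, averaged 49.2 ± 7.47 TPM in knockout and 55.0 ± 4.24 TPM in wild type, and Acta1, skeletal muscle actin, averaged 1.86 ± 1.17 TPM in knockout and 0.81 ± 1.21 TPM in wild type. Tmsb15a and Pfn3 were listed at 0 in every library.

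**Figure D5:**
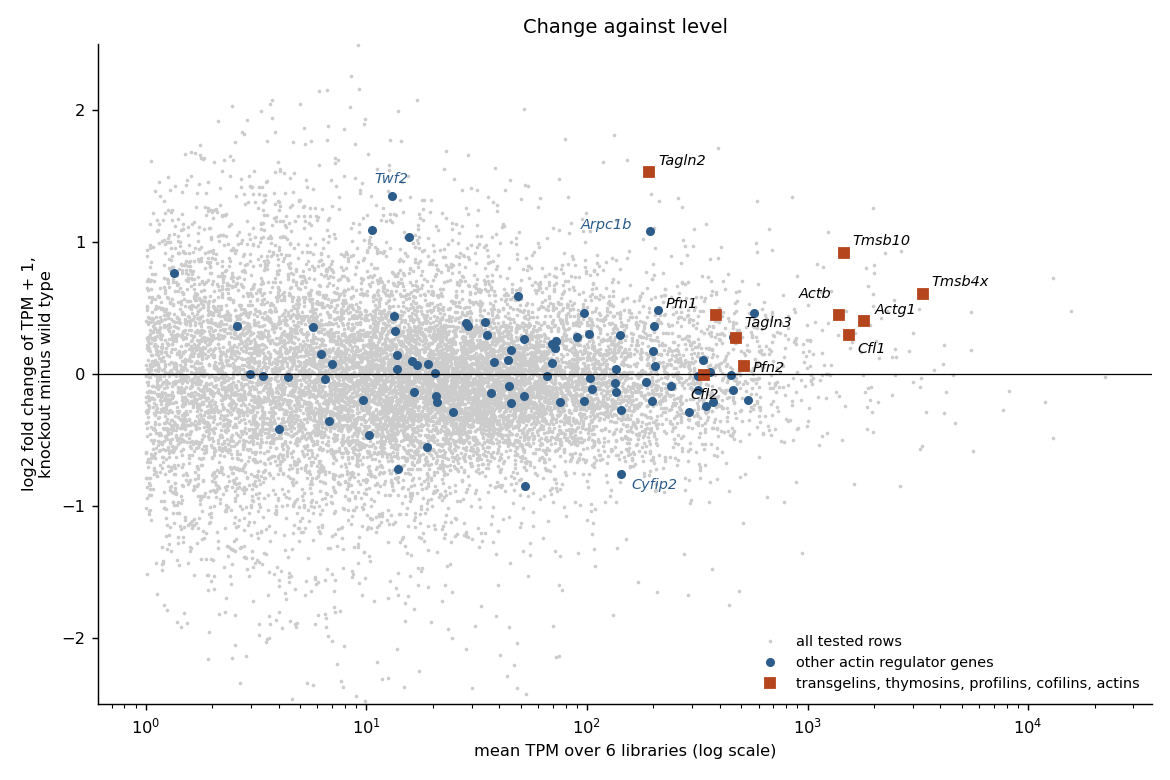
Log2 fold change of TPM + 1, knockout minus wild type, against mean TPM on a log scale for all tested rows (grey), the 82 other actin regulator genes (blue) and the 10 genes described here (red squares); 41 rows beyond 2.5 log2 units are not drawn. Tagln2, Tmsb10, Tmsb4x and Actb were called higher, as were Twf2 and Arpc1b, while Cyfip2 was called lower.

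The transcription factor SRF acts through the CArG box, a promoter element of many actin genes. Of the 9 genes with a RefSeq promoter entry (250 bases before to 50 after the start, GRCm38.p6), 1, Actg1, held the box, which is its own reverse complement and so was read on both strands at once. It occurs in 1.63% of 32851 promoter windows. The window is shown because it is the 1 such match among these 9 genes, with the box in capitals, starting 90 bases before the start used by the RefSeq entry, which lies inside the GENCODE gene bounds given above. Actb was not read here.
Actg1 promoter, chr11:120348566-120348595, minus strand: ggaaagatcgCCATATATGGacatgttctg

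Tagln2 and the thymosins are also expressed outside neurons, so markers of other cells were read in the same libraries. Of 10 satellite glia markers, Fabp7 and Gja1 were called lower in knockout and 8 did not pass, where 3.17% of all tested rows were called lower. Gja1 missed the threshold whichever library was left out (limma adjusted p from 0.0599 to 0.121), and Fabp7 kept its call only without knockout replicate 3 or wild-type replicate 2 (otherwise 0.0796 to 0.130). Their summed level was between 1784 and 2160 TPM in knockout and between 2068 and 3039 TPM in wild type. Of these markers 1 had a log2 fold change above 0, the median was -0.70, and unadjusted p-values under 0.05 numbered 1 for higher and 4 for lower. Apoe averaged 159.8 ± 104 TPM in knockout and 394 ± 226 TPM in wild type. S100b, the most abundant of them, averaged 1266 ± 75.8 TPM in knockout and 1273 ± 38.3 TPM in wild type. Fabp7 averaged 214 ± 127 TPM in knockout and 663 ± 199.7 TPM in wild type. With the mean log2 level of these markers as a covariate, Tagln2 was at 1.30 (limma adjusted p = 0.0396) and Tmsb10 at 0.98 (adjusted p = 0.0454), and the calls of Tmsb4x (0.62, adjusted p = 0.122) and Actb (0.47, adjusted p = 0.152) ended. Without it Tmsb4x was at 0.61 (SE 0.13) and Actb at 0.45 (SE 0.11), and with it the SEs were 0.18 and 0.15. The covariate was at 4.96, 4.47 and 5.39 in knockout and at 5.70, 4.97 and 6.32 in wild type, so it goes partly with genotype.

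Macrophage markers, 9 in the list with 1 reaching the filter, summed to between 4.55 and 6.23 TPM in knockout and between 6.02 and 8.76 TPM in wild type, and the defining marker C1qa was listed at 0 in every library. Its partner C1qb was at 0.64, 0.42 and 0.47 TPM in knockout and listed at 0 in the wild-type libraries. Lyz2, the macrophage marker reaching the filter, was at 4.45, 2.54 and 4.74 TPM in knockout. In wild type Lyz2 was at 7.04, 6.02 and 8.08 TPM (log2 fold change -0.74, limma adjusted p = 0.150). Endothelial markers summed to between 16.6 and 24.6 TPM in knockout and between 12.8 and 17.7 TPM in wild type. Egfl7 held most of that sum, and Cldn5 and Flt1 were at 0. Of 7 smooth muscle and pericyte markers found, 2 reached the filter and the sums were 1.85 to 9.48 TPM in knockout and 1.97 to 5.42 TPM in wild type, with Kcnj8 at 0. Schwann cell markers summed to 22.5 to 33.0 TPM in knockout and 28.2 to 38.0 TPM in wild type, and fibroblast markers to 28.3 to 44.0 TPM in knockout and 22.9 to 46.0 TPM in wild type. Erythroid markers summed to 12.5 to 54.8 TPM in knockout and 3.99 to 20.2 TPM in wild type, nearly all of it Hba-a2, with Hbb-b1 at 0. Limma called 0 genes of these 6 lists, with 1 higher and 2 lower before adjustment. Their part in the values of the 10 genes was not tested. Of 10 neuron and proprioceptor markers, 3 (Runx3, Etv1 and Pvalb) were called lower in knockout, against 3.17% of all tested rows, and 1 (Rbfox3) higher, against 1.86%. The median log2 fold change of these 10 markers was -0.39. Unadjusted limma p-values under 0.05 numbered 1 for higher and 6 for lower, the latter including Ntrk3, Isl1 and Nefh. With each library left out in turn the call was kept in 5 of 6 fits for Etv1 (not without knockout replicate 2), 3 for Runx3 (not without knockout replicate 1 or wild-type replicates 2 or 3), 1 for Pvalb (without knockout replicate 3) and 0 for Rbfox3.

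Over the 6 libraries the pattern of Tagln2 was matched most closely by Cdkn1a, which encodes the cell cycle inhibitor p21 (Pearson r = 0.996), among the 8076 named rows averaging 10 TPM or more. Prmt6 (0.992), an arginine methyltransferase, Hcrtr2 (0.991), an orexin receptor, and the transcription factors Ebf1 (0.989) and Tbx3 (0.987) followed. These correlations are a description over 6 libraries that include both groups and share the scaling of each library. Cdkn1a was at 29.0, 19.0 and 21.6 TPM in knockout and at 6.82, 9.78 and 6.06 TPM in wild type, with the highest value of each group in the same library as that of Tagln2. Tagln2 itself correlated with the other members at between 0.20 (Cfl2) and 0.91 (Actg1).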

How the data were processed

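RNA from parvalbumin-positive neurons was extracted with a PicoPure kit, amplified as cDNA and sequenced, per the labels' protocols. The authors deposited TPM values per library, and the submitters' processing notes name cutadapt, Bowtie2, RSEM 1.2.7 and build mm10 without saying how each was used. No annotation is named there. Each column sums to 1000000, so depth is unknown, and amplification from small inputs can add noise.

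The test was limma 3.58.1 (R 4.3.3) on log2(TPM + 1) with genotype as the only term and an intensity trend, for rows averaging 1 TPM or more, two-sided and adjusted by Benjamini and Hochberg over all 13787 rows at 0.05. It was tested on simulated data with known fold changes, a check of the code and not of the error rate in these libraries. It called 256 rows higher and 437 lower in knockout, and 375 and 385 after median-of-ratios rescaling.

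Members, gene lists and microRNA families were chosen with earlier results of these data known. Named genes were the members, Dicer1 and Pvalb, called or most abundant genes of each list, markers at 0, and the 5 rows most like Tagln2; Diaph3 and Diaph2 were found under older symbols, and Diaph1, Acta2, Tmsb15b1, Tmsb15l, Hba-a1 and Hbb-bt were not found by name. Arpc1a, Xist and Ddx3y were added after their values were seen, and Apoe, C1qb and Tagln are also named outside this rule. The most abundant Schwann cell, fibroblast and pericyte markers (Drp2, Dcn and Rgs5) are not described singly. Of the 10 lists of actin regulators, 1 is counted in the totals and not reported singly here. Alternatives covered the pseudocount, filter, scaling, single libraries, replicate block, both replicate 3 libraries, satellite glia level, trend and summed rows. Seed matches were read with Python 3.11.15 in 1 principal transcript per gene. Of 19 listed families 17 were read, and miR-124 and miR-145 were not used here.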

Additional observations from a re-analysis of the deposited data

How the results depend on the processing

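Of 15 alternatives, each library left out in turn gave between 48 and 348 rows called higher and 116 to 487 lower over the table, 2 to 5 of the 10 genes higher and 0 lower, and 1 to 3 of the other actin regulators higher and 0 to 2 lower. Without a filter on low values the table had 130 higher and 248 lower and 2 of the 10 genes were called. With a filter at 5 TPM the table had 328 higher and 488 lower. There 6 of the 10 genes were called and the other actin regulators had 6 higher. With median-of-ratios rescaling the regulators had 5 higher, where the table had 375. Without replicate 3 of both groups the table had 65 higher and 139 lower. There 1 of the 10 genes (Tagln2) was called, and the other actin regulators had 2 higher and 0 lower. With the satellite glia covariate the counts were 80 and 111, with 2 of the 10 genes and 1 and 0 regulators, and without the intensity trend 57 and 168, with 1 of the 10 genes and 1 and 0 regulators. The cause was not tested.

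Deviations of same-numbered libraries from their group means correlated at 0.05, 0.07 and 0.04 between groups, and 2 of 3 knockout libraries correlated best with their own number. Replicate 3 of both groups shares its Xist and Ddx3y pattern, and the satellite glia level had the same order of replicates in both. Whether the numbers pair the libraries is not settled by these values, and the main fit had no replicate term. A replicate block left 2 of the 10 genes called (Tagln2 and Tmsb10). Fold changes near 0 changed sign: Cfl2 was 0.068 with rescaling and 0 with the covariate and ranged from -0.071 to 0.105 (0.045 without wild-type replicate 2) with single libraries left out, and Pfn2 from -0.032 to 0.138, below 0 without knockout replicate 1. The Actb to Actg1 ratio difference ranged from -0.022 (without knockout replicate 3) to 0.096. The difference in the share of the library held by the 10 genes, 0.39 percentage points, ranged from 0.37 to 0.43 over single libraries left out. The number of libraries limits precision, and differences within the spread were not detectable.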
